A study of Mus musculus with 80 samples.

Results

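Loss of ZCCHC8 and loss of YTHDC1 were compared gene by gene in chromatin-associated RNA sequencing (ChrRNA-seq) of mouse embryonic stem (mES) cells, to find which genes changed under both, under 1 alone, or in opposite directions. The comparison rests on 8 of the 80 samples of the series, all from cells in which Xist was not induced. ZCCHC8 is the scaffold subunit of NEXT, the nuclear exosome targeting complex, which brings short-lived nuclear RNAs such as promoter upstream transcripts, enhancer RNAs and extended transcripts to the helicase MTR4 and the RNA exosome. YTHDC1 is the nuclear reader of N6-methyladenosine (m6A) on RNA, and is known in mES cells for roles in splicing, RNA turnover and the silencing of retroelements.

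All 8 libraries came from female (XX) Cast x 129S hybrid mES cells grown on inactivated mouse fibroblast feeders, in which a TetOn promoter drives Xist from the 129S allele. This Xist carries an inserted array of Bgl stem-loops, which lets its RNA be imaged. The FKBP12 F36V degron was fused to the C terminus of ZCCHC8 in clones Z4F and Z12H and to that of YTHDC1 in clones Y9F and Y12H. Each clone was sequenced once untreated and once after the degrader dTAG-13, so each of the 4 groups holds 2 libraries, 1 per clone. The sample titles give dTAG for 26 h, whereas the treatment text names 2 h, and the titles were followed. The same 4 clones were also sequenced with doxycycline (Dox, 24 h, which induces Xist), alone or with dTAG for 2 h beforehand and throughout. The degron acts on the protein, so RNA of the targeted gene does not check the labels: Zcchc8 changed by -0.06 on the log2 scale in its own lines (adjusted p = 0.507) and Ythdc1 by -0.01 in its own (adjusted p = 0.960, limma). Each p-value rests on how the change varied between single clones. That spread was estimated per gene over all libraries of the fit, for this comparison both lines with and without Dox.

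The 8 libraries held 15.0 M to 26.7 M reads assigned to genes, so that 1 read was worth 0.0374 to 0.0666 CPM (read counts scaled to each library's total). A mean of at least 1 CPM over the 16 libraries of these 4 clones was reached by 13857 of 22556 genes. The 9 mES cell markers summed to 1633 to 2110 CPM per library, although Sox2 was listed at 0 in each, and the 10 feeder fibroblast markers to 3.54 to 6.52 CPM, with Lum at 0. The 9 markers of differentiating cells summed to 35.9 to 50.9 CPM in untreated and 55.6 to 66.9 CPM in depleted ZCCHC8 lines, and to 50.4 to 64.9 and 52.6 to 64.0 CPM in the YTHDC1 lines. The part of these shifts in the results below was not tested. Fewer cells of a type and less RNA per cell cannot be told apart in such bulk libraries.

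Promoters of 4 of the genes described below are shown as single examples of the main patterns that differ in CG content at their starts. The promoters are those of B130034C11Rik (higher without ZCCHC8 only), Zscan4d and Frmd7 (opposite changes) and Col20a1 (higher without YTHDC1 only). Each is the RefSeq window of 250 bases before to 50 after the gene start in GRCm38.p6, at chr16:87495823-87496122 (+), chr7:11166099-11166398 (-), chrX:50942720-50943019 (-) and chr2:180986285-180986584 (+), written 5′ to 3′ with each CG dinucleotide in capitals.
B130034C11Rik: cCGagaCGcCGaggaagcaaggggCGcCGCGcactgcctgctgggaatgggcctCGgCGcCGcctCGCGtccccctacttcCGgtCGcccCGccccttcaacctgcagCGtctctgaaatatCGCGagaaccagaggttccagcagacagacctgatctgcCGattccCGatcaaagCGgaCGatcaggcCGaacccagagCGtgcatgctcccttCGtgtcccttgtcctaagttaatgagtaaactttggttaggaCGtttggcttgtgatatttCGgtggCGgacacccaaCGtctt
Zscan4d: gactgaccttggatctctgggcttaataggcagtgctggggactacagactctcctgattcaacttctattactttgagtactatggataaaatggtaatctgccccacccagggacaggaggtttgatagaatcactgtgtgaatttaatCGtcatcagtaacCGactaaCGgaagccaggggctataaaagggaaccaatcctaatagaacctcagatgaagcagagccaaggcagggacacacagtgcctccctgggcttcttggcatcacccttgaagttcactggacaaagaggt
Frmd7: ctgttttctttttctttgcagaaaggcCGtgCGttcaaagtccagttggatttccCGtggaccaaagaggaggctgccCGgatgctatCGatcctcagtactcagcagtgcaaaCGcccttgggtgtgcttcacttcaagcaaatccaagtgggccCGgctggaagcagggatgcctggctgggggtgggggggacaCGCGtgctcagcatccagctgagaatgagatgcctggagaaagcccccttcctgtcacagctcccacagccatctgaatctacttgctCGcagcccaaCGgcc
Col20a1: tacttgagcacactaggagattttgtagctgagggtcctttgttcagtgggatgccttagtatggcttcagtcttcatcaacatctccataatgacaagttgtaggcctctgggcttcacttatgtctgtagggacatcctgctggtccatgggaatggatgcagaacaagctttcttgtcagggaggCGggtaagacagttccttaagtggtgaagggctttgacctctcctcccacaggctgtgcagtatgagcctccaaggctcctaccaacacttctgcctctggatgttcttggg
The B130034C11Rik window, which lies back to back with the start of the chaperonin gene Cct8, held 28 CG, Frmd7 held 11, Zscan4d 3 and Col20a1 1. The median over the 27025 genes with such a window was 7, and 43.6% of them held 5 or fewer. A single window does not stand for its group. Over the first kilobase, the median was 33 CG for genes higher without ZCCHC8 only, against 48 for all genes tested. It was 47 for genes higher without YTHDC1 only.

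Over both clones of each line, more genes were called for ZCCHC8 than for YTHDC1 depletion, and the difference between the depletions was itself called for 3475 genes. On the log2(CPM + 1) scale, with clone as a block and Benjamini-Hochberg adjusted p under 0.05 (limma), 4996 genes (36.1% of those tested) changed without ZCCHC8, 2756 higher (19.9%) and 2240 lower (16.2%). Without YTHDC1, 2634 genes (19.0%) changed, 1463 higher (10.6%) and 1171 lower (8.45%). The ZCCHC8 change minus the YTHDC1 change was called at 3475 genes (25.1%), above 0 at 1926 (13.9%) and below 0 at 1549 (11.2%). The median change over all genes tested was -0.01 for ZCCHC8, below 0.01 in size for YTHDC1 and -0.01 for the difference. The excess of higher over lower calls turned with the expression filter: at a mean of 5 CPM or more, 1711 genes were higher and 2136 lower for ZCCHC8, and the difference was above 0 at 1269 and below 0 at 1455, whereas for YTHDC1 1291 were higher and 1095 lower.

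Genes called for both depletions numbered 1225, which is 24.5% of the ZCCHC8 calls, beside 19.0% of all genes called for YTHDC1, and 46.5% of the YTHDC1 calls, beside 36.1% of all genes called for ZCCHC8. Of these, 787 moved in the same direction (shared) and 438 (35.8%) in opposite directions. The difference was also called at 109 of the 787 shared genes. A gene was classed as specific where 1 depletion and the difference were called and the other depletion was not, which gave 1937 ZCCHC8-specific genes (1257 higher, 680 lower) and 740 YTHDC1-specific genes (487 higher, 253 lower). A further 1834 genes were called for ZCCHC8 and 669 for YTHDC1 without a called difference, so that specificity was undecided for them. These counts rest on 2 clones a line: without clone Y9F the YTHDC1 calls fell to 347 and without Y12H to 1093, and without Z4F or Z12H the ZCCHC8 calls fell to 2765 or 2921. The order of the 2 totals turned without either ZCCHC8 clone. Such a fit sets 1 pair of libraries of 1 line against 2 pairs of the other, so it cannot rank the totals.

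**Figure D1:**
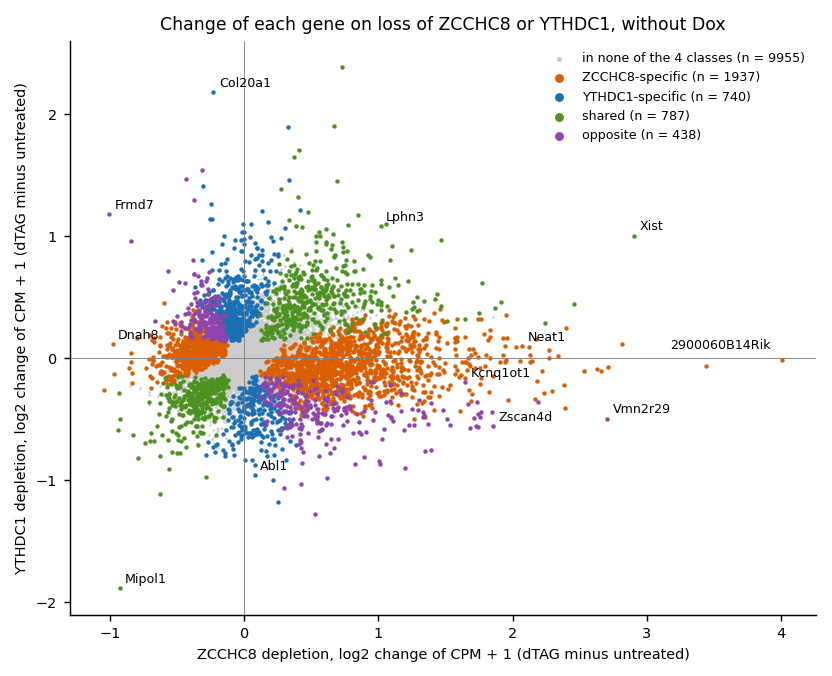
Log2 change in CPM + 1 after ZCCHC8 depletion (x axis) against that after YTHDC1 depletion (y axis), 1 point per gene tested, coloured by class. ZCCHC8-specific genes extend along the x axis past a log2 change of 3, YTHDC1-specific genes along the y axis, and the shared and opposite classes fill the diagonals.

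The 1257 ZCCHC8-specific higher genes had a median log2 change of 0.72 without ZCCHC8 and -0.07 without YTHDC1, values that chose them and are given as a description. The largest change was at 2900060B14Rik, a 598-base gene model at chr1:118458668-118459265 that overlaps a gene on the other strand. It stood at 0.334 and 0.604 CPM in untreated Z4F and Z12H and at 21.2 and 24.0 CPM after dTAG. In Y9F it went from 0.898 to 0.969 CPM and in Y12H from 0.618 to 0.524 CPM, so that only the ZCCHC8-depleted libraries stood apart. It was thus under 1 CPM in the other 6 of these 8 libraries and passed the filter only through libraries in which it was high. Its ZCCHC8 change was 4.01 ± 0.16 (SE, 2 clones, adjusted p = 8.08e-11, limma) and its difference from the YTHDC1 change 4.03 ± 0.23.

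B130034C11Rik, the noncoding neighbour of Cct8 whose promoter is shown above, went from 1.77 to 18.8 CPM in Z4F and from 2.21 to 18.2 CPM in Z12H. It was between 1.42 and 1.81 CPM in the 4 YTHDC1 libraries, whose groups overlapped. The difference was 2.78 ± 0.31 (adjusted p = 7.12e-06, limma). Mir466p, a microRNA gene whose deposited model spans a long region, went from 8.40 to 101 CPM in Z4F and from 9.50 to 113 CPM in Z12H, with 7.30 to 9.05 CPM in the YTHDC1 lines. Clec11a, which encodes a secreted C-type lectin growth factor, went from 2.05 to 11.9 and from 1.61 to 15.8 CPM, and Lrrc51 from 2.05 to 18.2 and from 3.30 to 17.9 CPM. The differences were 3.51 ± 0.16 for Mir466p, 2.60 ± 0.28 for Clec11a and 2.15 ± 0.21 for Lrrc51. Rps16, a ribosomal protein gene whose reads may be shared with processed copies, rose by 2.17 ± 0.31 (adjusted p = 5.72e-05, limma).

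ZCCHC8-specific lower genes changed less, with medians of -0.32 without ZCCHC8 and 0.07 without YTHDC1. Dnah8, an axonemal dynein heavy chain gene, went from 193 to 92.3 CPM in Z4F and from 134 to 71.2 CPM in Z12H. It stood at 167 and 167 CPM in Y9F and at 146 and 172 CPM in Y12H, above each ZCCHC8-depleted library. Its difference was -1.10 ± 0.10 (adjusted p = 1.16e-06, limma), and those of Wdr90, Poln (DNA polymerase nu) and Gprasp2 were -0.96 ± 0.21, -0.89 ± 0.12 and -0.88 ± 0.18.

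The 487 YTHDC1-specific higher genes had medians of 0.39 without YTHDC1 and -0.08 without ZCCHC8. Col20a1, a collagen gene at chr2:180986534-181017540, went from 2.41 to 14.4 CPM in Y9F and from 2.09 to 13.1 CPM in Y12H. In the ZCCHC8 lines it went from 3.87 to 2.73 and from 2.94 to 2.74 CPM, below both YTHDC1-depleted libraries throughout. Its YTHDC1 change was 2.18 ± 0.13 (adjusted p = 2.41e-08, limma) and its difference -2.41 ± 0.19. Wdr17, Wdr6 and Zfp91Cntf, a readthrough model that overlaps its parent genes, had differences of -1.51 ± 0.18, -1.38 ± 0.20 and -1.39 ± 0.23. Among the lower genes, Abl1, a tyrosine kinase gene, went from 104 to 44.4 CPM in Y9F and from 94.2 to 57.4 CPM in Y12H, and stood at 114 to 130 CPM in the 4 ZCCHC8 libraries. The YTHDC1-depleted libraries were the lowest of the 8. Bai3, an adhesion G protein-coupled receptor gene, and Slc6a7, a proline transporter gene, had differences of 0.98 ± 0.12 and 1.21 ± 0.21.

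Shared changes were of like size, with medians of 0.49 and 0.46 for ZCCHC8 and YTHDC1 over the 438 shared higher genes and of -0.33 and -0.31 over the 349 shared lower genes. Lphn3, an adhesion G protein-coupled receptor gene that spans 774139 bases, went from 45.9 to 97.3 CPM in Z4F and from 53.4 to 106 CPM in Z12H. It went from 56.4 to 134 CPM in Y9F and from 56.6 to 109 CPM in Y12H, so all 4 depleted libraries were above all 4 untreated ones. Its difference was -0.06 ± 0.11 (adjusted p = 0.718, limma). Ctgf, which encodes a secreted matricellular protein, changed by 1.06 ± 0.14 and 1.10 ± 0.14, and Nav3 by 1.24 ± 0.12 and 0.89 ± 0.12.

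Mipol1, at chr12:57230424-57457241, fell under both depletions but by unequal amounts. It went from 176 to 92.3 CPM in Z4F and from 171 to 89.1 CPM in Z12H, and from 144 to 36.1 CPM in Y9F and from 180 to 50.6 CPM in Y12H. The YTHDC1-depleted libraries were the lowest, and the difference was 0.96 ± 0.08 (adjusted p = 6.81e-07, limma). Dpysl4, Jdp2, a repressor of the AP-1 family, and Rgs3, a regulator of G protein signalling, fell by similar amounts under both, with differences of -0.04 ± 0.18, -0.02 ± 0.16 and below 0.01 in size for Rgs3.

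Opposite changes ran both ways, with 249 genes higher without ZCCHC8 and lower without YTHDC1 and 189 the reverse. Zscan4d, which marks the early cleavage embryo, went from 2.77 to 11.9 CPM in Z4F and from 5.64 to 24.4 CPM in Z12H, and from 5.14 to 3.87 CPM in Y9F and from 4.76 to 2.36 CPM in Y12H. The ZCCHC8 lines rose and the YTHDC1 lines fell in each clone. The changes were 1.86 ± 0.14 (adjusted p = 9.08e-08) and -0.56 ± 0.14 (adjusted p = 0.0132, limma), and the difference 2.41 ± 0.20. Zscan4a and Zscan4e had differences of 2.30 ± 0.23 and 2.21 ± 0.19, and since the Zscan4 genes are near-identical copies and only unique alignments were counted, the values of single copies are uncertain. Vmn2r29, a vomeronasal receptor model whose start lies 4026 bases downstream of Clcn4-2 on the same strand, changed by 2.71 ± 0.13 and -0.50 ± 0.13.

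Frmd7, an X-linked FERM domain gene, moved the other way. It went from 6.83 to 2.46 CPM in Z4F and from 7.85 to 3.97 CPM in Z12H, and from 6.57 to 16.7 CPM in Y9F and from 5.85 to 14.1 CPM in Y12H. The untreated libraries lay between the groups depleted of ZCCHC8 and of YTHDC1, and the difference was -2.19 ± 0.18 (adjusted p = 3.08e-07, limma). Snrpn, an imprinted gene of the small nuclear ribonucleoproteins that overlaps another gene on its strand, fell by 0.31 on the log2 scale without ZCCHC8 (adjusted p = 0.0254) and rose by 1.54 ± 0.10 without YTHDC1. Arhgef38, a guanine nucleotide exchange factor gene, and Zbbx had differences of -1.90 ± 0.15 and -1.80 ± 0.11.

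**Figure D2:**
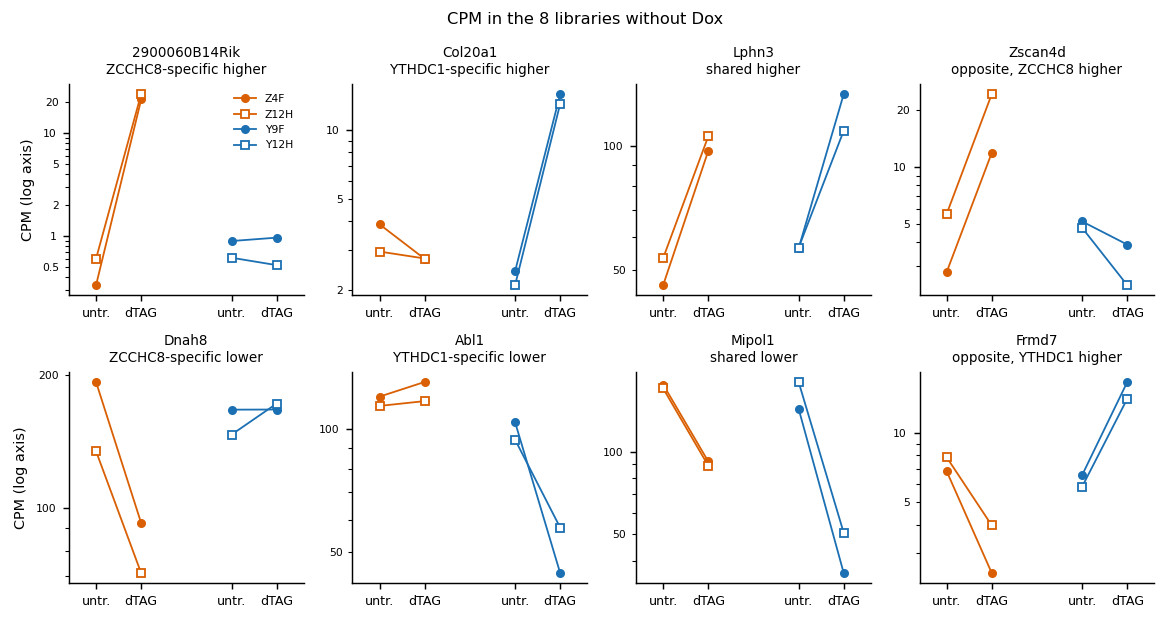
CPM (log axis, scaled per panel) of 8 genes, 1 for each class and direction, in the untreated and dTAG libraries of clones Z4F and Z12H (ZCCHC8) and Y9F and Y12H (YTHDC1), with lines joining the libraries of 1 clone. Such agreement of both clones was part of the rule that chose these genes. 2900060B14Rik stood at 21.2 and 24.0 CPM in the ZCCHC8-depleted libraries and under 1 CPM in the other 6.

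The classes were set by changes without Dox and were next read as changes in other libraries. The libraries with Dox shared the expression filter and the estimate of spread that set the classes, and with classes from the 8 libraries without Dox alone, the counts called again with Dox were 1675 for ZCCHC8-specific genes in place of 1649, and 561 for YTHDC1-specific genes in place of 552. With Dox, in the same 4 clones and fitted alone, 43.2% of 13887 genes were called for ZCCHC8 (26.3% higher, 16.9% lower), 18.3% for YTHDC1 (11.1% and 7.27%) and 33.0% for the difference (18.7% and 14.3%). Of the 1248 ZCCHC8-specific higher genes tested there, 1152 (92.3%) were called higher for ZCCHC8, 33 were higher and 77 lower for YTHDC1, and 1062 had the difference called in the same direction. Of the 678 ZCCHC8-specific lower genes, 497 (73.3%) were called lower. Of the YTHDC1-specific genes, 365 of 484 were called higher and 187 of 253 lower for YTHDC1, with the difference called the same way at 306 and 161. The ZCCHC8 change there was 4.59 at 2900060B14Rik (adjusted p = 3.74e-10) and the YTHDC1 change 2.25 at Col20a1 (adjusted p = 3.26e-07, limma).

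Of the shared higher genes, 353 of 437 were called higher for ZCCHC8 and 286 for YTHDC1 with Dox, and 233 (53.3%) were again shared and higher, a class that held 3.46% of all genes there. Of the shared lower genes, 142 of 349 (40.7%) were again shared and lower, beside 2.13% of all genes. Among the opposite genes, 137 of the 249 higher without ZCCHC8 (55.0%) and 99 of the 189 higher without YTHDC1 (52.4%) fell in the same class, beside 1.99% and 1.93% of all genes. Without the clone block, the count of YTHDC1-specific genes called for YTHDC1 with Dox was 115 in place of 552.

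**Figure D3:**
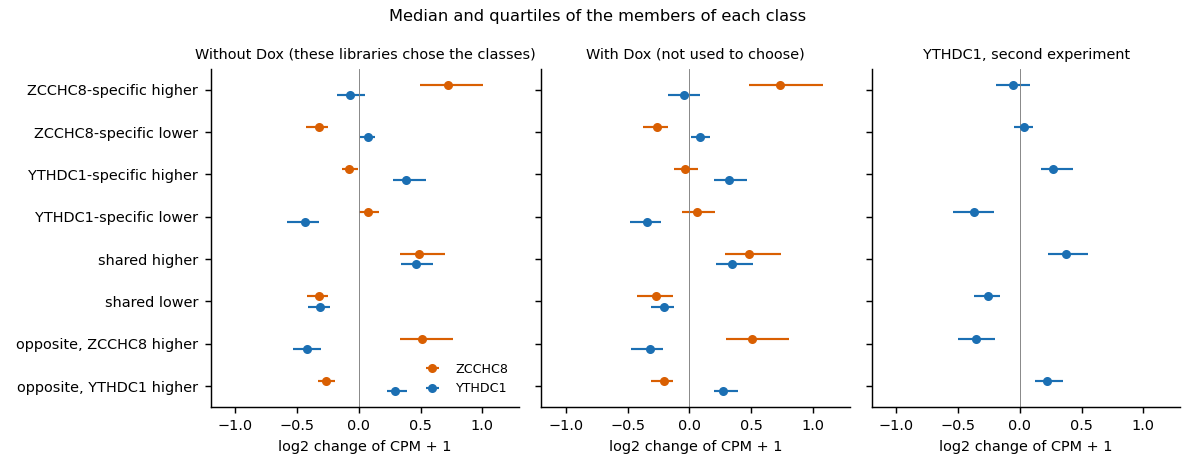
Median log2 change of CPM + 1 (points) with the quartiles (bars) over the members of each class, for ZCCHC8 and YTHDC1 in the libraries without Dox that chose the classes, with Dox, and in the second YTHDC1 experiment. With Dox the ZCCHC8-specific higher genes had medians of 0.73 for ZCCHC8 and -0.04 for YTHDC1, and the YTHDC1-specific higher genes of -0.03 and 0.32.

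A second YTHDC1 experiment used the same clones Y9F and Y12H, and 17.8% of its 13722 genes were called (8.34% higher, 9.42% lower). There, 273 of 486 YTHDC1-specific higher genes and 283 of 432 shared higher genes were called higher, and 169 of 246 YTHDC1-specific lower and 204 of 349 shared lower genes were called lower. Of the opposite genes, 97 of 189 were called higher and 147 of 238 lower, each in the direction of the first experiment. Of the 1083 ZCCHC8-specific higher genes tested, 35 were called higher and 85 lower. Col20a1 rose by 2.73 (adjusted p = 9.17e-12) and Frmd7 by 1.01 (adjusted p = 2.77e-06), whereas Zscan4d changed by -0.38 (adjusted p = 0.101, limma).

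In lines with a degron on METTL3, the m6A methyltransferase, and on ZFC3H1, a subunit of the other nuclear exosome adaptor PAXT, the classes were read in the same way. METTL3 depletion moved the median of all genes by 0.21, with 23.3% of 13367 genes called (16.9% higher, 6.34% lower). There, 129 of 482 YTHDC1-specific higher genes (26.8%) and 112 of 422 shared higher genes (26.5%) were called higher, beside 149 of 1034 ZCCHC8-specific higher genes (14.4%). The median changes of these classes were 0.17, 0.18 and 0.14, below the 0.21 of all genes. Called lower were 6.64%, 9.72% and 8.41% of them, beside 6.34% of all genes. ZFC3H1 depletion called 2.15% of 13544 genes (1.75% higher, 0.399% lower). Among them were 77 of 1074 ZCCHC8-specific higher genes (7.17%), 34 of 424 shared higher genes (8.02%) and 9 of 479 YTHDC1-specific higher genes (1.88%). These lines were sequenced in other tables and came from other parental cells, with Xist driven from the Cast allele and without the stem-loops. The METTL3 clones carried the degron at either the N or the C terminus. The differences between the classes were not tested.

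Features of the gene models, which did not choose the classes, are given as descriptions. Of ZCCHC8-specific higher genes, 21.8% were not protein coding, against 4.78% of all genes tested, 16.6% spanned under 5 kb, against 9.94%, and 17.3% lay back to back with another gene within 1 kb, against 13.1%. Their median level before depletion was 4.99 CPM, against 18.9 CPM, a value that entered the changes and the filter that chose them. Among the 1257 genes, 125 had an untreated mean under 1 CPM and passed the filter through the depleted or Dox libraries. Their first kilobase held a median of 33 CG, against 48, the hexamer AATAAA at 27.2%, against 19.8%, and the hexamer GTAAGT at 21.6%, against 18.5%, on the gene's own strand. These values were not particular to this class: shared higher genes had a median of 37 CG, the first hexamer at 25.3% and the second at 21.7%, and of genes higher without ZCCHC8 and lower without YTHDC1, 19.0% were not protein coding and 24.5% held the second hexamer. Both hexamers were searched as spelled, and a match is not a functional site.

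Noncoding genes that start back to back with another gene, the arrangement of divergent promoter transcripts, were largely higher without ZCCHC8. Of 149 tested, 115 were called higher and 1 lower for ZCCHC8 (median 0.80), and 13 higher and 11 lower for YTHDC1 (median 0.03), beside 19.9% of all genes higher for ZCCHC8 and 10.6% for YTHDC1. The partners of the 217 back-to-back ZCCHC8-specific higher genes showed no such shift. Of 198 partners tested, 26 were called higher and 35 lower for ZCCHC8, beside 19.9% and 16.2% of all genes. The median change of the partners was -0.04, beside 0.80 for the genes themselves. By name, 26 of 31 Mir genes, 29 of 47 opposite-strand transcripts, 134 of 221 Gm genes and 332 of 692 Rik genes were called higher for ZCCHC8, and 3, 1, 19 and 77 for YTHDC1. The YTHDC1 count of 77 is 11.1% of the Rik genes, near the 10.6% of all genes. Of the same groups, 2, 4, 21 and 70 genes had an untreated mean under 1 CPM and passed the filter through depleted or Dox libraries.

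Shared higher genes were long. Their median span was 75532 bases and 45.0% of them exceeded 100 kb, against 25924 bases and 15.6% of all genes tested. Length was not particular to this class. The median span was 58867 bases for genes higher without ZCCHC8 and lower without YTHDC1, and 57004 bases for the reverse. It was 44877 bases for YTHDC1-specific lower genes. Over all genes tested, those above 300 kb were called higher for ZCCHC8 at 314 of 517 (60.7%) and lower at 42 (8.12%). Those under 2 kb were higher at 89 of 278 (32.0%) and lower at 16 (5.76%). Between 30 and 100 kb, 675 of 4083 were higher (16.5%) and 887 lower (21.7%), beside 19.9% and 16.2% of all genes. For YTHDC1, 122 of the 517 genes above 300 kb were higher (23.6%) and 76 lower (14.7%). Under 2 kb, 12 of 278 were higher (4.32%) and 9 lower (3.24%), beside 10.6% and 8.45% of all genes. Counts cover whole transcripts, introns included.

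**Figure D4:**
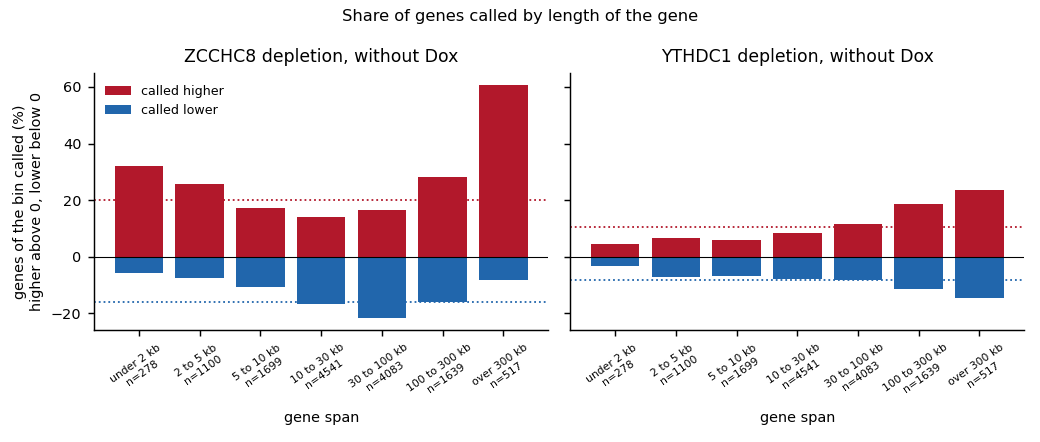
Percent of genes called higher (above 0) and lower (below 0) for ZCCHC8 and YTHDC1 in bins of gene span, with dotted lines at the percent over all genes. For ZCCHC8 the share called higher was 32.0% under 2 kb, 16.5% between 30 and 100 kb and 60.7% above 300 kb, and for YTHDC1 it was 4.32%, 11.6% and 23.6%. Over all genes tested it was 19.9% for ZCCHC8 and 10.6% for YTHDC1.

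Long internal exons are a common place for m6A, but the longest exon was taken here at any position, first and last exons included. It exceeded 3 kb in 51.9% of the genes higher without YTHDC1 and lower without ZCCHC8. The share was 43.6% of YTHDC1-specific higher and 42.5% of shared higher genes, against 28.1% of all genes matched and 24.0% of ZCCHC8-specific higher genes. The m6A consensus 5-mer GGACT, counted on the gene's strand over all exons, had class medians of 0.83 to 1.08 per kb, against 1.00 over all genes. A count of these letters is not a measure of m6A.

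Most called X-linked genes were lower for ZCCHC8 and higher for YTHDC1. Of 527 tested, 118 were called lower and 84 higher for ZCCHC8, 33 lower and 104 higher for YTHDC1, and 118 lower and 48 higher for the difference, whose median was -0.12 against -0.01 over all genes. These are 22.4% lower and 15.9% higher for ZCCHC8, beside 16.2% and 19.9% of all genes, and 6.26% lower and 19.7% higher for YTHDC1, beside 8.45% and 10.6%. They made up 9.52% of the genes higher without YTHDC1 and lower without ZCCHC8, 8.21% of YTHDC1-specific higher and 7.21% of ZCCHC8-specific lower genes, beside 3.80% of all genes. Xist itself went from 84.3 to 738 CPM in Z4F and from 108 to 704 CPM in Z12H without Dox, and from 79.3 to 186 CPM in Y9F and from 95.2 to 165 CPM in Y12H. Its difference was 1.90 ± 0.14 (adjusted p = 1.32e-07, limma). Without Dox Xist also rose by 1.29 after ZFC3H1 depletion (adjusted p = 0.00736, limma). With Dox, which induces it, Xist rose by 1.43 without ZCCHC8 and fell by 0.18 on the log2 scale without YTHDC1 (adjusted p = 0.0102, limma), so that its direction for YTHDC1 turned. Its part in the X-linked changes was not tested. The counts for X-linked genes depended on single clones: those lower for ZCCHC8 numbered 61 to 75 without 1 ZCCHC8 clone, and those higher for YTHDC1 17 without Y9F and 54 without Y12H.

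Nuclear long noncoding RNAs, 14 of which were tested, were called higher at 8 and lower at 3 for ZCCHC8 (median 0.41), and higher at 3 and lower at 6 for YTHDC1 (median -0.08), beside 19.9% and 16.2% of all genes for ZCCHC8 and 10.6% and 8.45% for YTHDC1. With Dox 1 was higher and 7 lower for YTHDC1, and in the second YTHDC1 experiment 2 were called each way. Kcnq1ot1, the antisense RNA of an imprinted cluster, went from 1776 to 6185 CPM in Z4F and from 2118 to 5988 CPM in Z12H, and from 1961 to 1751 CPM in Y9F and from 2134 to 1819 CPM in Y12H. The ZCCHC8-depleted libraries stood far above the other 6, and the YTHDC1 change of -0.20 was also called (adjusted p = 0.0492, limma), with a difference of 1.85 ± 0.09. The YTHDC1 change of Kcnq1ot1 was -0.36 with Dox (adjusted p = 0.000214, limma). In the second YTHDC1 experiment it was -0.15 and not called (adjusted p = 0.131, limma). Neat1 is the scaffold RNA of paraspeckles, and its deposited model covers 3178 bases. It went from 433 to 2099 and from 563 to 2047 CPM in the ZCCHC8 lines. In the YTHDC1 lines it changed by 0.10 (adjusted p = 0.627, limma). Its rise was not particular to ZCCHC8, since it also rose by 1.79 without ZFC3H1 (adjusted p = 0.00612, limma). With Dox its ZCCHC8 change was 0.89. Airn, the antisense RNA of the Igf2r cluster, rose by 0.68 ± 0.09 and fell by 0.29 on the log2 scale, with a difference of 0.98 ± 0.12. Jpx rose under both, by 0.44 and 0.50, whereas Firre, Mirg and Rian fell under both. Kcnq1ot1, Airn and Xist overlap genes on the other strand, and counting was strand-specific.

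Genes of the 2C-like state, the cleavage-stage programme that appears in a small share of mES cells, were called higher without ZCCHC8 at the 18 of 25 that were tested (median 1.35), and the difference was called at each. Over all genes, 19.9% were called higher for ZCCHC8 and 13.9% had a called difference above 0. Of these 18, 3 had an untreated mean under 1 CPM and passed the filter through depleted or Dox libraries, and 9 had a mean of 5 CPM or more and were called at that filter, so the count over tested genes is a description. For YTHDC1, 7 were called lower (38.9%, beside 8.45% of all genes), and the rest missed the threshold (median of the 18 -0.28). Among the 7 was Sp110 with -0.55 (adjusted p = 0.00112, limma) beside 1.53 without ZCCHC8. Summed over the 25 genes, the level went from 128 to 164 CPM in untreated to 248 to 380 CPM in depleted ZCCHC8 lines, and from 127 to 133 to 106 to 119 CPM in the YTHDC1 lines, without overlap in either. With Dox the counts were 18 higher for ZCCHC8, beside 26.3% of all genes, and 5 lower for YTHDC1 (27.8%, beside 7.27%). In the second YTHDC1 experiment 1 of 11 was called lower (9.09%, near the 9.42% of all genes). At most 1 of the calls lower for YTHDC1 was left without either YTHDC1 clone or without the clone block. Many of these genes belong to multicopy families, and the list was chosen with earlier results of these data known.

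**Figure D5:**
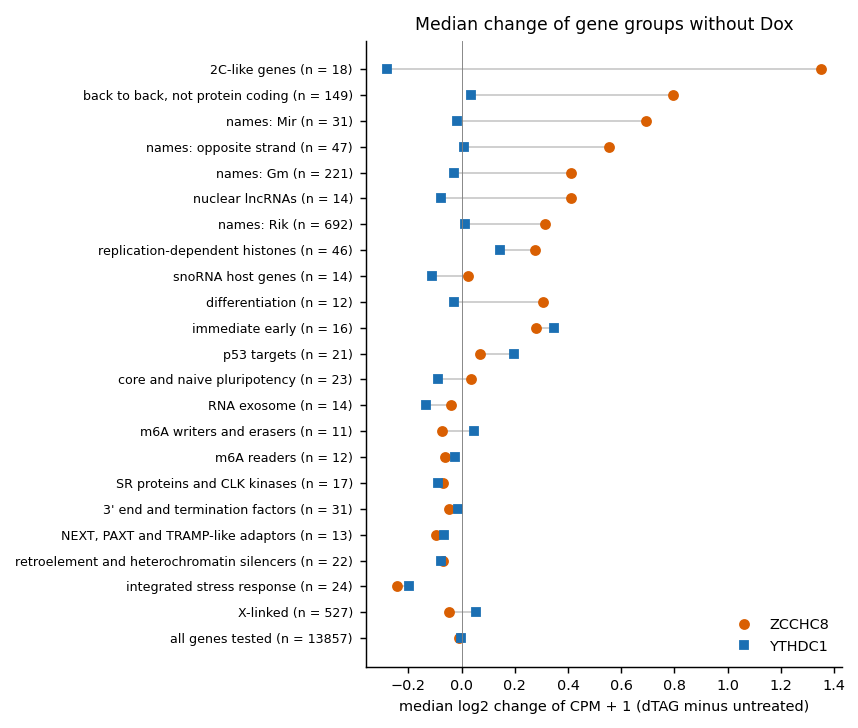
Median log2 change of CPM + 1 (dTAG minus untreated, without Dox) over the tested members of each gene group, for ZCCHC8 (circles) and YTHDC1 (squares), with the number tested beside each name. The 2C-like genes stood at 1.35 and -0.28, the widest gap drawn, and all genes tested at -0.01 for ZCCHC8.

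Replication-dependent histone genes were called higher at 16 of 46 for ZCCHC8 and at 4 for YTHDC1 (medians 0.28 and 0.14), which is 34.8% and 8.70%, beside 19.9% and 10.6% of all genes. With Dox 31 of 44 were higher for ZCCHC8 (70.5%, beside 26.3% of all genes) and 3 for YTHDC1. Hist2h2be changed by 1.47 and 0.43, and Hist1h2bp by 1.95 and 0.35, of which the last missed the threshold (adjusted p = 0.114, limma). Histone genes are near-identical copies, so single values are uncertain. Of 14 snoRNA host genes, 5 were higher (35.7%) and 1 lower for ZCCHC8 and 2 were lower for YTHDC1 (14.3%). With Dox 7 were higher and 2 lower for ZCCHC8, but for YTHDC1 6 were higher and 1 lower, beside 11.1% and 7.27% of all genes. Snhg3 changed by -0.29 without Dox (adjusted p = 0.00336) and by 0.16 with Dox (adjusted p = 0.0214, limma) in the YTHDC1 lines. Dancr went from 26.4 to 85.8 CPM in Z4F and from 28.1 to 132 CPM in Z12H and changed by 0.17 in the YTHDC1 lines (adjusted p = 0.338, limma).

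Immediate early genes were called higher at 6 of 16 (37.5%) and lower at 1 for ZCCHC8, beside 19.9% higher over all genes. For YTHDC1 5 were higher (31.2%), beside 10.6%. Fos, Jun, Egr1, Ier2 and Fosl1 were shared. Egr1, a zinc finger transcription factor gene, changed by 0.73 and 0.76 without Dox, but by -0.54 (adjusted p = 0.000354) for ZCCHC8 and 0.08 for YTHDC1 with Dox. Of 24 genes of the integrated stress response, 8 were lower (33.3%) and 2 higher for ZCCHC8 and 5 lower (20.8%) for YTHDC1, beside 16.2% and 8.45% of all genes lower. Those lower under both were Asns, asparagine synthetase, Phgdh, Psat1 and Shmt2 of serine and glycine synthesis, and the amino acid transporter gene Slc7a3, and Asns and Phgdh were again lower for both with Dox. Among 21 p53 targets, 6 were higher (28.6%) and 1 lower for YTHDC1, and 2 were higher (9.52%, below the 19.9% of all genes) and 1 lower for ZCCHC8. With Dox 10 were higher for YTHDC1 (47.6%, beside 11.1% of all genes). For ZCCHC8 6 were higher (28.6%, near the 26.3% of all genes) and 1 lower. Mdm2, the ubiquitin ligase gene that restrains p53, went from 278 to 438 CPM in Y9F and from 254 to 390 CPM in Y12H, and changed by 0.01 in the ZCCHC8 lines, with a difference of -0.62 ± 0.10.

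Of 13 genes for NEXT, PAXT and related adaptors, 1 was higher (7.69%) and 5 were lower (38.5%, beside 16.2% of all genes) for ZCCHC8 and 1 each way for YTHDC1. Zcchc7, of the TRAMP-like complex, rose by 0.24 and 0.25, and Srrt, which encodes the cap-binding partner ARS2, fell by 0.47 and 0.36 on the log2 scale. Of 14 exosome genes, Exosc6 was higher without ZCCHC8, by 0.91 beside 0.19 without YTHDC1 (difference adjusted p = 0.00693, limma), whereas Exosc7 and Exosc8 were lower, with -0.24 and -0.30. Without YTHDC1, Exosc5 and Dis3l were lower, with -0.31 and -0.32. These calls are 7.14% higher and 14.3% lower for ZCCHC8, below the 19.9% and 16.2% of all genes. For YTHDC1 14.3% were lower, beside 8.45%. Of 12 m6A reader genes, 2 were higher (16.7%) and 1 lower (8.33%) without YTHDC1, beside 10.6% and 8.45% of all genes. Ythdf2 and Ythdf3 were higher, by 0.30 and 0.23, with differences of -0.27 and -0.39. Igf2bp3 was lower, with -0.33 and a difference of 0.39. Of 23 pluripotency genes, 4 were higher (17.4%) and 3 lower (13.0%) for ZCCHC8, below the 19.9% and 16.2% of all genes. For YTHDC1 1 was higher (4.35%) and 5 lower (21.7%), beside 10.6% and 8.45%. Dppa3 changed by 0.85 without ZCCHC8 and -0.05 without YTHDC1. With Dox, 8 of the 23 pluripotency genes were higher (34.8%) and 9 lower (39.1%) for ZCCHC8, above the 26.3% and 16.9% of all genes. For YTHDC1 5 were lower with Dox (21.7%, beside 7.27%) and 0 higher. Without Dox, 4 of 12 differentiation genes tested were higher for ZCCHC8 (33.3%) and 1 for YTHDC1 (8.33%), beside 19.9% and 10.6% of all genes.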

How the data were processed

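ChrRNA-seq was compared in mES cells with degron-tagged ZCCHC8 or YTHDC1. After a Bowtie2 step against rRNA, the authors mapped reads to an N-masked mm10 genome by STAR, kept unique alignments, and counted reads over whole transcripts by strand with featureCounts. The deposited values are CPM made with edgeR, and whole reads were recovered from 100% of values. Gene counts used here come from 4 deposited tables with 48 assigned libraries, and 12 columns of other samples in these tables were not used. Allelic ratios and transgene tables were not used here.

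CPM + 1 was put on the log2 scale and fitted with limma 3.58.1 in R 4.3.3 (eBayes with trend) over the 16 libraries of the 4 clones, with clone as a block, for genes whose mean reached 1 CPM. For the changes with Dox, those libraries were also fitted alone, as were the other tables. Clones pair the libraries by design, and deviations of untreated and dTAG libraries of 1 clone correlated at 0.56 for ZCCHC8 and 0.35 for YTHDC1. Named genes were, per class, the 4 with the largest change or difference among established names and 2 among clone-type names, at a mean of 5 CPM or more and with the same direction in both clones, plus the adaptors, the lncRNAs and 3 per other list. The members and lists were chosen with earlier results of these data known. edgeR 4.0.16 on the recovered reads was an alternative. The script was tested on simulated data. Libraries had no molecular identifiers, so depth speaks only to counting error.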

Additional observations from a re-analysis of the deposited data

Results flagged for a closer look

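The change under ZCCHC8 depletion differed from that under YTHDC1 depletion at 3475 genes, by the interaction term of the limma model. Among the named genes past this test, values are the ZCCHC8 log2 change minus the YTHDC1 log2 change, with 2 clones a line.

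Genes higher without ZCCHC8 and not called without YTHDC1 were Mir466p (3.51), Clec11a (2.60), Rps16 (2.50), Lrrc51 (2.15), 2900060B14Rik (4.03) and B130034C11Rik (2.78). Those lower without ZCCHC8 were Dnah8 (-1.10), Wdr90 (-0.96), Poln (-0.89), Gprasp2 (-0.88), 4930502E18Rik (-1.05) and 1500012F01Rik (-0.73).

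Genes higher without YTHDC1 and not called without ZCCHC8 were Col20a1 (-2.41), Wdr17 (-1.51), Zfp91Cntf (-1.39), Wdr6 (-1.38), BC030499 (-1.04) and D11Wsu47e (-0.95). Those lower without YTHDC1 were Slc6a7 (1.21), Abl1 (1.04), Adam4 (1.02), Bai3 (0.98), G630093K05Rik (1.43) and A730036I17Rik (0.88).

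The depletions moved Vmn2r29 (3.20), Zscan4d (2.41), Zscan4a (2.30), Zscan4e (2.21), 4930549G23Rik (2.55) and Gm4971 (2.29) up without ZCCHC8 and down without YTHDC1, and Frmd7 (-2.19), Arhgef38 (-1.90), Snrpn (-1.86), Zbbx (-1.80), D5Ertd579e (-0.97) and D1Ertd622e (-0.89) the other way. Among genes that moved in the same direction under both without Dox, the size differed at Xist (1.90), 1110019D14Rik (0.41) and Mipol1 (0.96), of which Xist changed by -0.18 without YTHDC1 when Dox was given.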

How the results depend on the processing

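Calls rested on the clone block and on single clones. Without the replicate block, 2498 genes were called for ZCCHC8, 730 for YTHDC1 and 1514 for the difference, with 160 shared, 61 opposite, 1029 ZCCHC8-specific and 221 YTHDC1-specific genes, and, with Dox, 115 YTHDC1-specific genes called, 49 shared and 32 opposite genes in the same class. Leaving out 1 clone gave 2765 to 4519 calls for ZCCHC8, 347 to 2859 for YTHDC1 and 1800 to 2496 for the difference, and 108 to 542 shared, 74 to 275 opposite, 1183 to 1419 ZCCHC8-specific and 118 to 677 YTHDC1-specific genes. The lone clone is then assumed to vary like the others, and the lowest YTHDC1 count came without Y9F. With an absolute log2 change of at least 1 required, 405, 47 and 541 genes were called, with 3 shared, 1 opposite, 326 ZCCHC8-specific and 25 YTHDC1-specific. Scaling, pseudocount, expression filters, the 8 libraries alone and edgeR kept these counts within 1.5 times. A mean of 5 CPM or more turned the balance of directions: 44.5% of ZCCHC8 calls were higher, in place of 55.2%, and 46.6% of called differences were above 0, in place of 55.4%. With all genes above 0 in at least 1 library, 64.1% of ZCCHC8 calls and 61.9% of differences were. Depth limits genes near 1 CPM, and 344 genes tested had an untreated mean below it.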
